A study of Mus musculus with 8 samples.

Results

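The genes described here carry cholesterol into and through cells and start its conversion to steroid hormones: Star, Tspo, Cyp11a1, Cyp17a1, Fdx1, Scarb1, Stard3 and Nr4a1. All probe sets whose platform gene symbol is one of these names were taken, 14 probe sets for 8 genes out of the 22626 probe sets left once control probe sets were set aside. A probe set is a group of short oligonucleotides that together report 1 transcript. The ferredoxin reductase gene Fdxr, also on the list, was not analysed here, since no probe set carried that symbol alone. Values are deposited signal intensities in arbitrary units on a linear scale.

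The samples were RNA of TTE3 cells, a mouse testicular Sertoli cell line derived from mice transgenic for the simian virus 40 large T-antigen in a temperature-sensitive form that is inactivated at 39 °C. The time spent at 39 °C was 0, 6, 12 or 24 h. Each time had 2 samples, each on its own array, giving 8 arrays. All groups share the transgene, and TTE3 is 1 cell line, so the samples are not separate animals. Every later time differs from 0 h in temperature, in T-antigen state and in hours of culture, which cannot be told apart in this design. Whether samples of the same time were cultured separately is not stated, and p-values then reflect only how much these samples vary, which may be technical.

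Steroid synthesis begins when cholesterol reaches the inner mitochondrial membrane, where the side-chain cleavage enzyme CYP11A1 turns it into pregnenolone. The steroidogenic acute regulatory protein STAR governs that delivery, TSPO is a cholesterol-binding protein of the outer mitochondrial membrane, and ferredoxin hands electrons to the mitochondrial enzyme. In the testis this pathway is a hallmark of Leydig cells, which make testosterone, while Sertoli cells are known mainly for nursing germ cells and for responding to androgens. SCARB1 takes cholesterol esters from lipoproteins, and STARD3 moves cholesterol at late endosomes. NR4A1 is an orphan nuclear receptor induced by many stimuli that acts on steroidogenic promoters.

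The arrays were similar in scale, with median signals between 138.5 and 154.7 units. Of 18 Sertoli marker genes listed, 16 were on the array and 9 passed the filter on dim probe sets (described with the tests below), among them Clu, Gata4, Sox9 and Wt1, while Amh stayed between 3.5 and 13.8 units on all arrays. Of the 6 Leydig markers that are not described below, 3 were on the array and 1 passed the filter. That was Nr2f2, a nuclear receptor gene that other stromal cells express too, and the enzyme genes Hsd3b1 and Hsd17b3 were dim. The filter was passed by 2 of 6 peritubular myoid, 3 of 7 macrophage, 1 of 7 germ cell and 0 of 4 endothelial markers.

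The signal of Star stayed low through 12 h and was higher on both 24 h arrays in all 3 of its probe sets. Probe set 1418728_at read 48.5 and 66.4 units at 0 h, 31.7 and 74.1 at 6 h, 66.5 and 57.4 at 12 h, and 308.6 and 306.2 at 24 h. Probe set 1418729_at read 74.6 and 134.5 units at 0 h, 126.8 and 110.3 at 6 h, 107.2 and 119.6 at 12 h, and 229.9 and 287.2 at 24 h. Probe set 1449201_at read 20 and 52.1 units at 0 h, 73.9 and 9.4 at 6 h, 62.2 and 8.1 at 12 h, and 486.3 and 395.4 at 24 h. In each of them the lower 24 h array lay above the highest of the 6 earlier arrays, and the arrays of 0, 6 and 12 h overlapped.

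**Figure D1:**
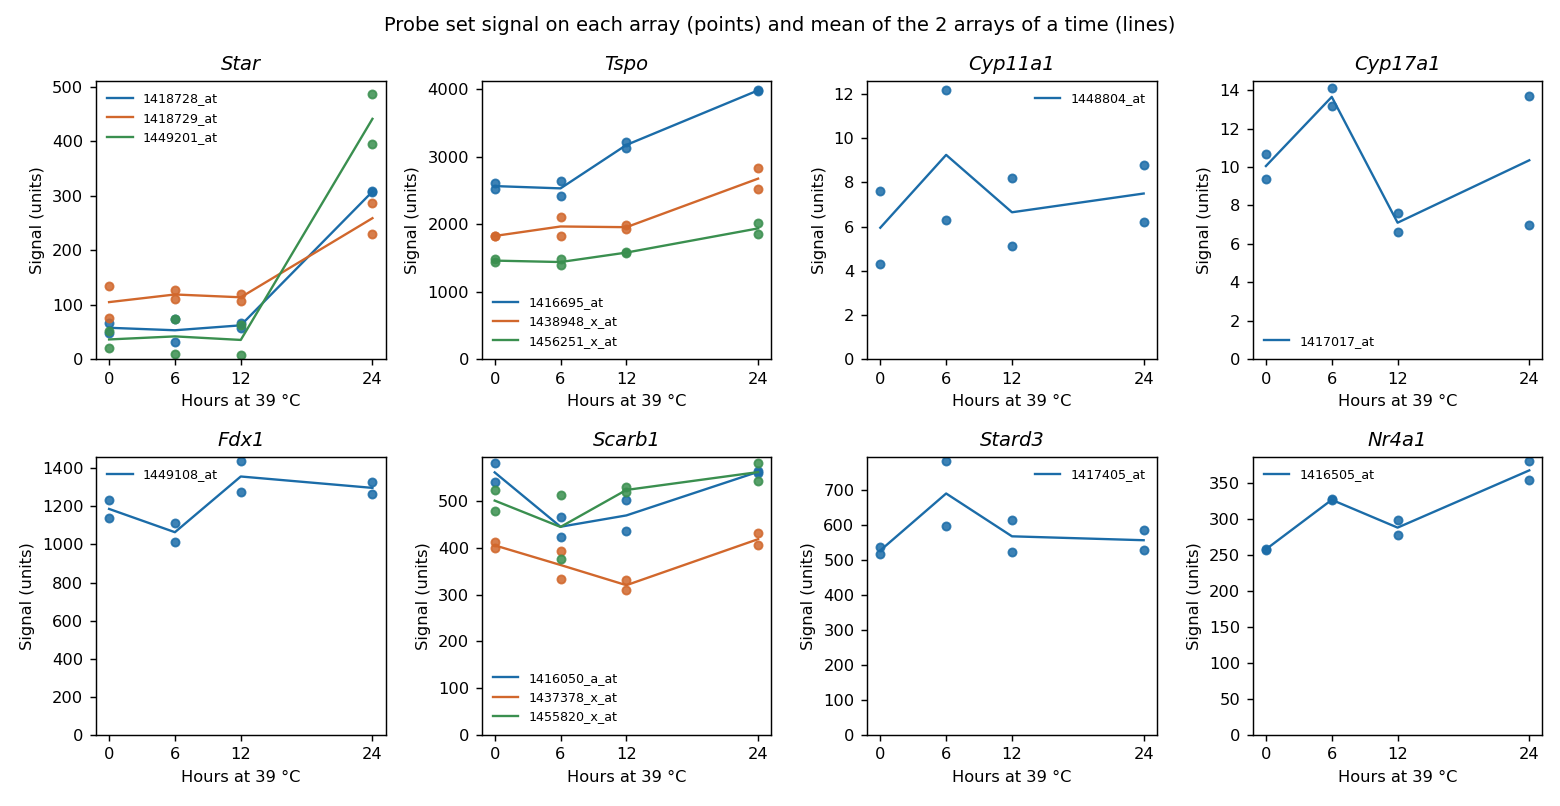
Probe set signal in units (vertical axes, linear and starting at 0, with a scale of their own for each gene) against hours at 39 °C (horizontal axes); each point is 1 array, each line joins the means of the 2 arrays of a time, and colours mark the probe sets of a gene. The 3 Star lines run low until 12 h and reach means of 307.4, 258.6 and 440.9 units at 24 h, while Cyp11a1 and Cyp17a1 never exceed 12.2 and 14.1 units.

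Tests used log2 of the signal plus an offset of 21.9 units, the 20th percentile of all values, so a log2 change understates the change of a dim gene. Probe sets whose mean log2 value lay under the 40th percentile were left out, 1 linear model was fitted to all 8 arrays with limma, and a probe set was called at an adjusted p below 0.05 (Benjamini-Hochberg) over all 13576 probe sets tested. Every log2 change is given ± its standard error, and SD is named where it is used. Of the 14 probe sets, 11 were tested, for 6 of the 8 genes: Cyp11a1, Cyp17a1 and Star probe set 1449201_at fell below the filter.

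At 24 h against 0 h, the log2 change of Star was 1.18 ± 0.24 for 1418729_at (2.27-fold, 95% interval 0.65 to 1.71, limma adjusted p = 0.00327), which passes the filter on the 0, 6 and 12 h arrays alone. Without the offset, the ratio of its mean signal at 24 h to that at 0 h was 2.47. Probe set 1418728_at passed the filter only through its 24 h arrays, so it had to differ to be tested, and its log2 change of 2.06 is given as a description with no test. The third, 1449201_at, which was outside the filter, had a mean of 36.05 ± 22.7 units at 0 h and 440.9 ± 64.3 at 24 h (SD, n = 2), and no fold is given because some of its earlier arrays lay under the offset. All 3 probe sets had the same direction. In these bulk samples, more cells with Star RNA and more Star RNA per cell cannot be told apart.

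The step fell between 12 and 24 h. From 12 to 24 h the log2 change was 1.05 ± 0.24 for 1418729_at (limma adjusted p = 0.0279). Against 0 h, 1418729_at was at 0.19 ± 0.24 at 6 h (95% interval -0.34 to 0.72) and at 0.14 ± 0.24 at 12 h (95% interval -0.39 to 0.67), and neither Star probe set tested was called at those times. No pair among 0, 6 and 12 h was called. The 12 to 24 h call of 1418729_at was lost with no filter (adjusted p = 0.0822), with no variance trend (0.0516), and when either 12 h array (0.114 and 0.0869) or either 24 h array (0.1 and 0.22) was left out.

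Markers of other cells were looked at beside this rise. Leydig markers other than Star, Cyp11a1 and Cyp17a1 summed to between 403.2 and 443.1 units at 0 h and between 354.1 and 383.4 at 24 h. Most of each sum was Nr2f2, which other stromal cells express too, so the sums are mainly a reading of that gene. Macrophage markers summed to between 548.9 and 633.0 units at 0 h and between 664.7 and 675.7 at 24 h, where 1 of the 3 tested, Cd68, a lysosomal protein gene, was called higher (0.59 on the log2 scale). Peritubular myoid markers summed to between 318.5 and 395.2 units at 0 h and between 313.8 and 416.7 at 24 h, and endothelial markers to between 146.1 and 148.4 and between 181.3 and 213.2. Germ cell markers summed to between 376.8 and 462.4 units at 0 h and between 1305.5 and 1380.3 at 24 h, and most of that sum was Kit, a receptor gene that Leydig cells also express, which rose from 252.7 and 348.8 units at 0 h to 1224.7 and 1222.3 at 24 h (limma adjusted p = 1.36e-05). The other 6 germ cell markers on the list, among them Ddx4 and Dazl, were under the filter. Sertoli markers summed to between 6825.2 and 6961.1 units at 0 h and between 9302.7 and 10220.0 at 24 h, and 2 of the 9 tested were called higher, among them Clu, the clusterin gene (log2 change 1.44 ± 0.15). The part of these cell types in the Star rise was not tested.

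Tspo, by contrast, was bright from the start and higher at 24 h in all 3 of its probe sets. Its brightest probe set, 1416695_at, read 2522.1 and 2602.4 units at 0 h, 2642.3 and 2414.3 at 6 h, 3129.5 and 3212.9 at 12 h, and 3988.4 and 3971.0 at 24 h. Both 12 h arrays lay above all 0 h and 6 h arrays, and both 24 h arrays lay above those. The log2 change at 24 h against 0 h was 0.63 ± 0.09 (1.55-fold, limma adjusted p = 0.000351). At 12 h it was 0.31 ± 0.09 (limma adjusted p = 0.0306), but that call ended with each array centred on its median (adjusted p = 0.0867), without a variance trend (0.0786) and without any one of the 0, 12 or 24 h arrays (0.056 to 0.181).

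The other Tspo probe sets, 1438948_x_at and 1456251_x_at, hold some oligonucleotides that can match other transcripts, as the suffix x marks. The first read 1819.2 and 1827.8 units at 0 h, 1817.1 and 2110.6 at 6 h, 1926.6 and 1980.3 at 12 h, and 2514.1 and 2830.3 at 24 h. The second read 1479.9 and 1437.1 units at 0 h, 1398.1 and 1476.6 at 6 h, 1576.1 and 1578.9 at 12 h, and 1858.7 and 2011.8 at 24 h. Both were highest at 24 h without overlap with any earlier array. Their log2 changes at 24 h against 0 h were 0.54 ± 0.11 and 0.40 ± 0.09 (limma adjusted p = 0.00241 and 0.00752); the second call was lost when 0 h replicate 2 (adjusted p = 0.0646) or 24 h replicate 2 (0.0799) was left out. At 12 h they were 0.10 ± 0.11 and 0.11 ± 0.09 and were not called, so the 12 h difference rests on 1 of the 3 probe sets.

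The enzyme genes at the start of the pathway gave almost no signal. Cyp11a1, the gene of the side-chain cleavage enzyme, read 7.6 and 4.3 units at 0 h, 6.3 and 12.2 at 6 h, 5.1 and 8.2 at 12 h, and 6.2 and 8.8 at 24 h. Cyp17a1, whose enzyme converts progestins to androgens, read 9.4 and 10.7 units at 0 h, 14.1 and 13.2 at 6 h, 6.6 and 7.6 at 12 h, and 7.0 and 13.7 at 24 h. All 16 of these values lay under the offset of 21.9 units, so differences between times at this brightness have no order. In the fit without a filter their log2 changes at 24 h against 0 h were 0.08 ± 0.21 (95% interval -0.40 to 0.56) for Cyp11a1 and 0.01 ± 0.22 (95% interval -0.48 to 0.50) for Cyp17a1. Each gene was measured by 1 probe set, and at this brightness a change was not detectable unless it lifted the signal past the offset.

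Fdx1, the gene of ferredoxin, the electron carrier that CYP11A1 needs and that also serves other mitochondrial enzymes, was well above the filter at every time. It read 1138.0 and 1235.6 units at 0 h, 1113.9 and 1015.0 at 6 h, 1439.8 and 1274.6 at 12 h, and 1326.9 and 1267.8 at 24 h. The 6 h arrays were lowest, and the 12 h and 24 h arrays overlapped. No pair of times was called: the log2 change at 24 h against 0 h was 0.13 ± 0.11 (95% interval -0.11 to 0.36), and the difference between 12 and 6 h, 0.34 ± 0.11, had a limma adjusted p of 0.0731.

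The genes of cholesterol uptake and endosomal export did not pass the test at any time. Scarb1, by its brightest probe set 1416050_a_at, read 581.8 and 542.3 units at 0 h, 466.9 and 424.4 at 6 h, 436.6 and 503.2 at 12 h, and 561.5 and 564.9 at 24 h. The 6 h and 12 h arrays all lay below those of 0 h and 24 h. The log2 change was -0.32 ± 0.12 at 6 h (limma adjusted p = 0.0917), -0.25 ± 0.12 at 12 h (0.162) and 0.00 ± 0.12 at 24 h (95% interval -0.26 to 0.27).

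The Scarb1 probe sets differed at 12 h. Probe set 1437378_x_at had its lowest pair there, at 310.1 and 330.8 units against 411.9 and 399.7 at 0 h, and a log2 change of -0.32 ± 0.13 (limma adjusted p = 0.0956). Probe set 1455820_x_at read 529.9 and 519.0 units at 12 h against 523.9 and 479.4 at 0 h, a log2 change of 0.06 ± 0.15 (adjusted p = 0.795). At 24 h the 3 probe sets lay between 0.00 and 0.16. The call of 1455820_x_at for 24 h against 6 h appeared only without 6 h replicate 1 (log2 change 0.55, adjusted p = 0.0155).

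Stard3 read 515.9 and 536.9 units at 0 h, 780.7 and 597.3 at 6 h, 520.6 and 612.8 at 12 h, and 527.1 and 584.0 at 24 h. The 6 h arrays lay above both 0 h arrays, and those of 12 h and 24 h overlapped them. The log2 change at 6 h was 0.36 ± 0.14 (limma adjusted p = 0.105), and it was called only when 6 h replicate 2 was left out (0.55, adjusted p = 0.0202). At 24 h it was 0.07 ± 0.14 (95% interval -0.24 to 0.39).

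Nr4a1, the nuclear receptor of the set, was higher at 24 h. Its promoter is shown because cyclic AMP response elements (CRE), the sites through which the hormone messenger cyclic AMP acts in steroidogenic cells, are its known control feature. The 250 bases before the start of Nr4a1 in RefSeq (build GRCm38.p6, chr15:101266596-101266845, plus strand) are printed with capitals marking matches to the CRE half-site TGACG, which reads CGTCA on the opposite strand.
Nr4a1: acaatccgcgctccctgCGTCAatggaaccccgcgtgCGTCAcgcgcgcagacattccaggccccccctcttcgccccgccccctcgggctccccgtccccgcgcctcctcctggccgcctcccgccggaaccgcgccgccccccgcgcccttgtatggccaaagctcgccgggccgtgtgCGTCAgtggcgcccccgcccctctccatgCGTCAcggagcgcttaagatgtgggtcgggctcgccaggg
The window held 4 matches, all on the minus strand, beginning 233, 213, 69 and 40 bases before the start. Of 32851 promoter windows of the same length in the table, 17.8% held at least 1 match on either strand and 0.137% held 4 or more. The full site TGACGTCA, which contains the half-site, did not occur in this window and occurred in 1.55% of windows. A match is a description of letters, not evidence of a bound site. Of the other promoters in the table, those of Fdx1 and Stard3 held 0 half-site matches, and the 2 windows of Cyp11a1 held 1 and 0; those of Star, Tspo, Cyp17a1 and Scarb1 were not used here.

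Nr4a1 read 257.2 and 258.9 units at 0 h, 326.0 and 327.9 at 6 h, 277.7 and 298.8 at 12 h, and 355.1 and 380.7 at 24 h. Every later array lay above both 0 h arrays, and the 24 h arrays were the highest. The log2 change was 0.32 ± 0.13 at 6 h (limma adjusted p = 0.113), 0.15 ± 0.13 at 12 h (0.445) and 0.48 ± 0.13 at 24 h (1.39-fold, 95% interval 0.19 to 0.76, limma adjusted p = 0.0154). The 24 h call ended whenever a 0 h or a 24 h array was left out (adjusted p between 0.0568 and 0.111). The call over the 4 times by limma's moderated F-test (adjusted p = 0.0467) ended without a filter (0.0857), after quantile normalization (0.0769), with centred arrays (0.0972) and without any one of the 0, 12 or 24 h arrays (0.0548 to 0.188). The other receptors of its family were dim: Nr4a2 read between 45.2 and 92.5 units and Nr4a3 between 23.8 and 93.3 over the 8 arrays, both under the filter.

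Counted over probe sets, 6 of the 11 tested were called at 24 h against 0 h, all higher, from 3 genes (Star, Tspo and Nr4a1), where 32.9% of all probe sets tested were called and 17.1% were called higher. Of the 10 that also pass the filter without the 24 h arrays, which leaves out Star probe set 1418728_at, 5 were called. At 12 h 1 was called, a Tspo probe set, against a background of 24.0% called and 12.1% called higher. At 6 h limma called 0, against 18.0%, with 3 of 11 at an unadjusted p below 0.05: Nr4a1 and Stard3 with positive changes and a Scarb1 probe set with a negative one. Between later times, all calls were again in the higher direction: 1 of 11 from 6 to 12 h (Tspo; background 8.32% called, 4.61% higher), 3 from 12 to 24 h (Star and Tspo; 6.88% and 3.77%) and 5 from 6 to 24 h (Star and Tspo; 24.9% and 13.6%). Without 1418728_at these counts were 2 of 10 from 12 to 24 h and 4 of 10 from 6 to 24 h. The Tspo call from 12 to 24 h was that of 1438948_x_at (limma adjusted p = 0.0301), lost without a filter (0.0518) or a variance trend (0.0905). Tspo probe sets 1416695_at (0.0538) and 1456251_x_at (0.095) were not called for that step. Over the 4 times the F-test called 6 of 11, or 5 of 10 without 1418728_at, against 40.1%. When 1 array was left out, 10 to 12 of the probe sets were tested, so the counts that follow are not all out of 11. They include Star probe set 1418728_at wherever it was tested, so they are no check of its calls. Where 12 were tested, at least 1 lay outside the filter of the fit to all 8 arrays. The count at 24 h against 0 h was 4 to 7 when 1 array was left out. From 12 to 24 h it was 0 without either 24 h array, 1 without either 12 h array, and 5 and 6 without 6 h replicates 1 and 2. From 6 to 24 h it was 2 without 24 h replicate 2, and over the 4 times it was 3 and 2 without 24 h replicates 1 and 2. The count of 1 at 12 h became 0 without any of the 0, 12 or 24 h arrays, and that from 6 to 12 h became 0 without any array other than 6 h replicate 1. Centring each array on its median moved the median of all log2 changes at 24 h against 0 h by -0.10.

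**Figure D2:**
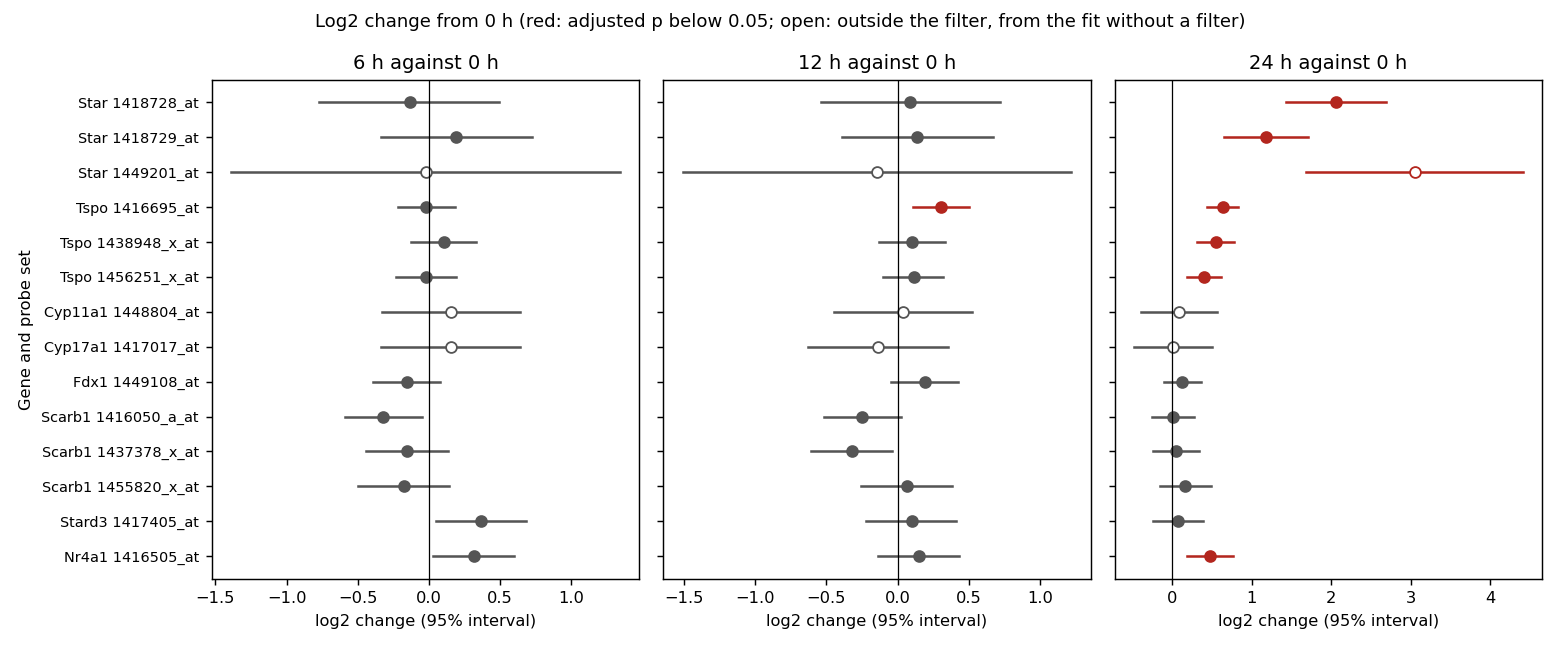
Log2 change from 0 h (horizontal axes, each panel with a scale of its own) of each probe set (vertical axis) at 6, 12 and 24 h. Points are estimates and bars 95% intervals of the fit. Red marks an adjusted p below 0.05, and open points lie outside the filter and come from the fit without it. At 24 h the Star and Tspo probe sets and Nr4a1 lie to the right of 0. The intervals of Cyp11a1, Cyp17a1, Fdx1, Scarb1 and Stard3 include 0 there. The Star probe set that passed the filter only through its 24 h arrays is a description with no test, whatever its colour. The same holds for the Star probe set drawn open.

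Other genes of the pathway were taken from 4 lists, with each gene represented by its brightest probe set. Over all 7707 genes tested in this way, 1430 rose and 1282 fell at 24 h against 0 h, 35.2% in all, with a median log2 change of 0.02.

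Among steroid enzymes and their redox partners, 10 of 32 listed genes were tested; 4 rose, 1 fell and 5 did not pass at 24 h, with a median log2 change of 0.05. Cyb5a, the gene of cytochrome b5, which assists CYP17A1 among other enzymes, rose from 3442.8 and 3681.9 units at 0 h to 8502.3 and 8159.9 at 24 h, a log2 change of 1.22 ± 0.10. Hsd17b11, a lipid droplet enzyme gene of the 17-beta-hydroxysteroid dehydrogenase family, rose from 1097.5 and 1130.4 units to 2686.6 and 2548.8, also 1.22 ± 0.10 on the log2 scale. Hsd3b7, whose enzyme acts in bile acid synthesis, rose by 0.95 ± 0.13 and Hsd17b4, a gene of peroxisomal fatty acid oxidation, by 0.60 ± 0.10. The members that rose thus include enzymes best known outside hormone synthesis. Hsd17b12, of fatty acid elongation, fell by 0.35 on the log2 scale (SE 0.11, adjusted p = 0.0349), a call lost without any of the 0 h or 24 h arrays (0.11 to 0.177), without a filter (0.0604), without a variance trend (0.0844) and after quantile normalization (0.0537). Srd5a3, of polyprenol reduction, changed over the 4 times (F-test adjusted p = 0.0253). Its log2 change against 0 h was -0.30 at 6 h and -0.50 at 12 h. The 12 h value was called, but not without either 0 h array or 12 h replicate 2. At 24 h it was at -0.02 ± 0.13, where its other probe sets tested lay between -0.22 and 0.61. Among the listed genes of hormone synthesis itself, Cyp21a1, the steroid 21-hydroxylase gene, passed the filter, at 102.7 to 161.3 units and a log2 change of -0.14 at 24 h that was not called. Genes under the filter included Hsd3b1, which read between 4.9 and 36.2 units over the 8 arrays, and Hsd17b3, between 8.2 and 50. Others on the list, such as Cyp19a1, Cyp11b1 and Srd5a1, were not analysed here.

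In the list of cholesterol uptake, storage and efflux, 12 of 23 genes were tested; 5 rose, 2 fell and 5 did not pass, with a median log2 change of 0.24. Abca1, the transporter that exports cholesterol to apolipoprotein A-I, rose from 277.0 and 165.9 units at 0 h to 571.6 and 605.2 at 24 h, by 1.36 ± 0.20. Pltp, the phospholipid transfer protein gene, rose by 1.05 ± 0.15, and Scarb2, a lysosomal membrane protein gene of the same family as Scarb1, by 0.70 ± 0.11. Scarb2 had first been lower at 6 h, at -0.56 on the log2 scale against 0 h, a call that 1 of 17 alternative fits lost. Npc1, which exports cholesterol from late endosomes, rose by 0.70 ± 0.23 (adjusted p = 0.0337), a call that ended without any of the 0 h or 24 h arrays (0.073 to 0.18), without a filter (0.0921), after quantile normalization (0.079) and with centred arrays (0.0691). Cav1, the caveolin-1 gene, fell from 2398.8 and 2365.0 units to 1324.4 and 1266.6 (-0.87 ± 0.16). Vldlr, a lipoprotein receptor gene, had its lowest values at 6 h (-0.90 ± 0.13) and stood at -0.40 ± 0.13 at 24 h, where its call ended without any of the 0 h or 24 h arrays (adjusted p 0.0926 to 0.157) and where another of its probe sets had the opposite sign, at 0.23.

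Of the intracellular sterol carriers, 19 of 22 were tested; 4 rose, 2 fell and 13 did not pass, with a median of 0.06. Scp2, the sterol carrier protein gene, rose from 1773.3 and 1677.0 units to 3018.8 and 2789.4 (0.74 ± 0.10). Mospd2, a membrane tether gene, rose by 0.60 ± 0.14 (with 0 h replicate 1 left out the adjusted p was 0.0744, and with 24 h replicate 2 left out 0.0978). Acbd3, whose protein was described as a partner of TSPO, rose by 0.46 ± 0.14, a call that ended with centred arrays (0.0841), without 0 h replicate 2 (0.18) and without either 24 h array (0.141 and 0.0775). Gramd1a, an endoplasmic reticulum sterol transporter gene, stood highest at 12 h (0.85 ± 0.21; a call lost with no filter, at 0.0501, or with 0 h replicate 1, at 0.114, or 12 h replicate 2, at 0.1, left out) and was at 0.42 ± 0.21 at 24 h (adjusted p = 0.156). Atad3a, a mitochondrial membrane ATPase gene linked to cholesterol import, fell at 6 h already, from 3335.2 and 3168.6 units at 0 h to 1698.7 and 2006.3, and stood at 1712.3 and 1601.2 at 24 h (-0.96 ± 0.10). Vdac2, a channel gene of the outer mitochondrial membrane, was at -0.43 ± 0.14 at 24 h (adjusted p = 0.0355), a call that ended without any of the 0 h or 24 h arrays (0.11 to 0.171), without a filter (0.0803) and without a variance trend (0.0889).

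Of the regulators of steroidogenic genes, 16 of 27 were tested; 3 rose, 0 fell and 13 did not pass at 24 h, with a median of 0.08. Nr5a1, the gene of steroidogenic factor 1, the main activator of Star and the cytochrome genes, read 347.5 and 358.2 units at 0 h, 245.9 and 274.2 at 6 h, 315.2 and 282.0 at 12 h, and 355.5 and 328.9 at 24 h. Its log2 change was -0.41 ± 0.14 at 6 h, which was called only with the stricter filter (adjusted p = 0.0483) and without 6 h replicate 2 (0.0495), and -0.04 ± 0.14 at 24 h. The related Nr5a2 read between 33.8 and 70.4 units and was under the filter. Nr0b2, the gene of the corepressor SHP, was highest at 12 h (1.09 ± 0.13) and at 0.82 ± 0.13 at 24 h. Cebpb, a transcription factor gene known to act on the Star promoter, rose by 6 h (0.84 ± 0.10) and stood at 0.89 ± 0.10 at 24 h. Prkar1a, a regulatory subunit gene of the cyclic AMP dependent kinase, rose by 0.54 ± 0.12 at 24 h (adjusted p = 0.0564 without 0 h replicate 2). Srebf1, a sterol and fatty acid regulator gene, was lower at 6 h (-0.47 ± 0.11; the adjusted p was 0.138 and 0.0502 when a 0 h array was left out) and at 0.09 ± 0.11 at 24 h.

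**Figure D3:**
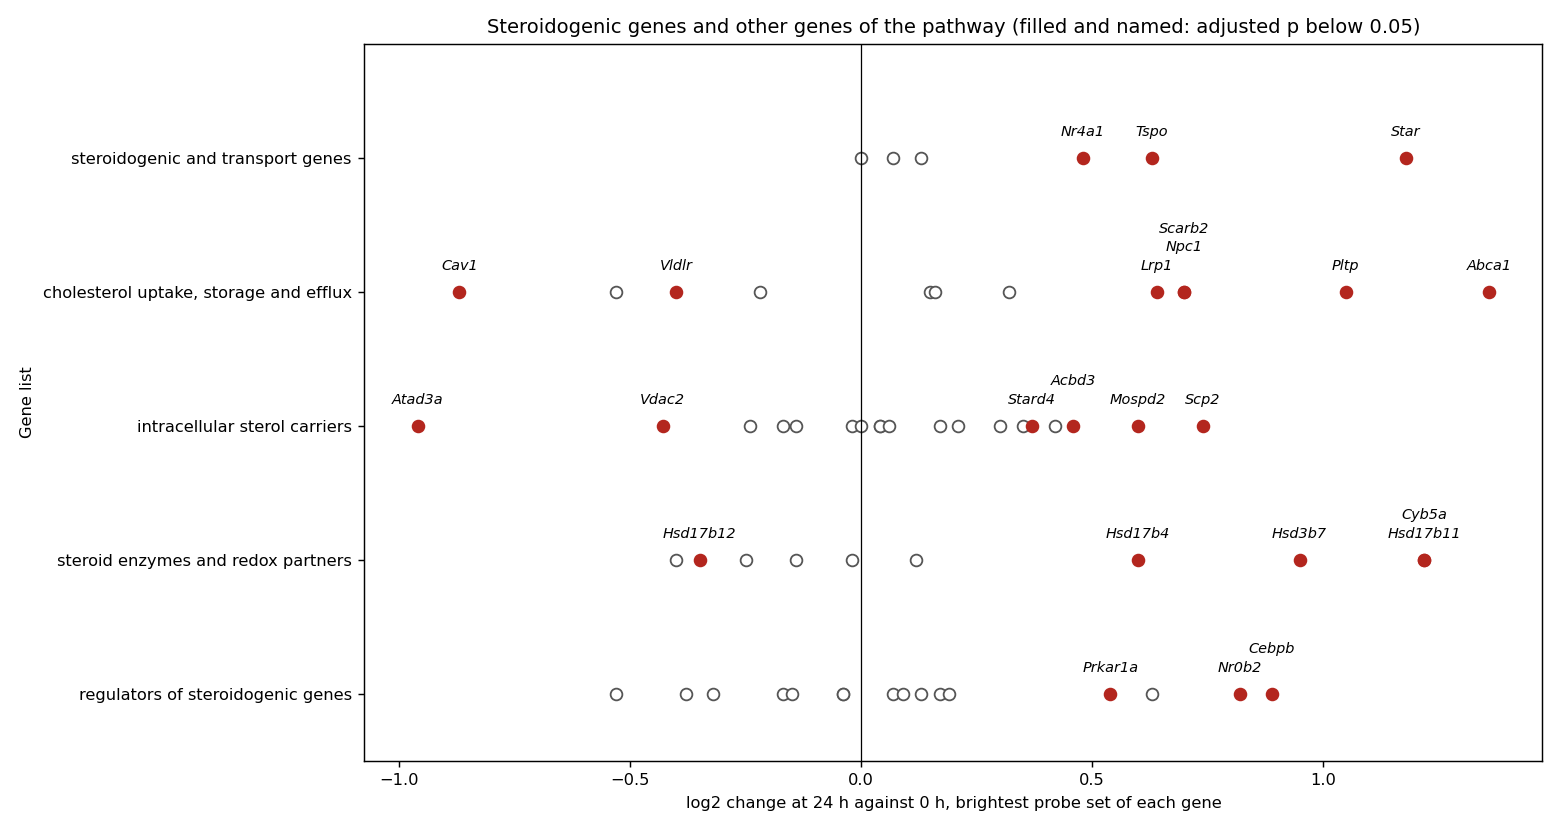
Log2 change at 24 h against 0 h (horizontal axis) of each tested gene, by its brightest probe set, in the steroidogenic and transport genes and the 4 other lists (vertical axis); filled, named points had an adjusted p below 0.05. Star lies at 1.18 and Abca1, Cyb5a and Hsd17b11 between 1.22 and 1.36, while Atad3a and Cav1 lie lowest, at -0.96 and -0.87.

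As a description over the 8 arrays of this time course, the genes whose log2 values followed the brightest Star probe set most closely, among 7707 genes, were Grtp1 (Pearson r = 0.964), Car8 (0.962) and Cyp3a13 (0.960). For Tspo they were Egfr (0.992), Ypel3 (0.991) and Gdpd5 (0.988), and for Nr4a1 they were Zfp292 (0.983), Mllt10 (0.970) and Slc25a46 (0.968). Star correlated with Tspo at r = 0.829 and with Nr4a1 at r = 0.809, and with Fdx1 at 0.340, Scarb1 at 0.366 and Stard3 at 0.030. The points share arrays and 4 times, so these values carry no test.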

How the data were processed

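RNA of 8 TTE3 samples was measured on 1 Affymetrix array each, and the authors deposited 1 signal intensity per probe set on a linear scale; the software that made them is not given in the sources used here. Each array's mean after trimming 2% at either end was close to 500.2 units, so the deposited intensity values were taken as already scaled. Of 22690 probe sets, 64 controls were left out. On the platform annotation 20380 probe sets had 1 gene symbol, 691 several and 1555 none; names come from those with 1, checked by gene ID against RefSeq (GRCm38.p6).

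The log2 of the signal plus 21.9 units was computed, probe sets under the 40th percentile of mean log2 value were removed, and limma 3.58.1 (R 4.3.3; moderated statistics with a variance trend, Benjamini-Hochberg adjustment) was fitted to the 4 times; the code was tested on simulated data. Comparisons with 0 h share the 0 h arrays. Alternatives were other offsets, filters, normalizations, a replicate block and leaving out each array. Genes outside the set were named by a rule: up to 6 per pathway list, by size of the largest change from 0 h among those called at 24 h against 0 h or over the 4 times, plus receptors related to Nr4a1 and Nr5a1. The genes and lists were chosen with earlier results of these data known, and alternatives for the pathway genes were added after seeing the data.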

Additional observations from a re-analysis of the deposited data

How the results depend on the processing

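The number of arrays, 2 per time, limits the precision, and probe sets near the offset have only weak order. The higher call of Star probe set 1418729_at at 24 h against 0 h held under every alternative that tested it, which the filter at the 60th percentile did not, with log2 changes from 0.83 to 1.53. Of 1101 values recomputed for the members' probe sets, 1018 kept their direction and side of the threshold, 43 lost and 11 gained a call, 29 changed sign without being called in either fit and 0 reversed a call. The main fit tested 11 of the members' probe sets. The filter at the 60th percentile left 9 to test and no filter left 14. Leaving out 1 array, or using only the arrays compared, left 10 to 12. A changed count can thus reflect a change in what was tested. All counts in this section include Star probe set 1418728_at wherever it was tested. It passed the filter only through its 24 h arrays, so the counts are no check of its calls. The count of tested probe sets that were called went from 1 to 0 at 12 h against 0 h with centred arrays or no variance trend. It went from 1 to 0 at 12 h against 6 h with centred arrays, no filter, no variance trend or only the arrays compared. It went from 3 at 24 h against 12 h to 1 without a variance trend and 5 with only the arrays compared. At 24 h against 6 h it went from 5 to 3 with the filter at the 60th percentile. That filter left out both Star probe sets, so their calls were not tested there. Leaving out 1 array at a time gave 0 to 1 at 6 h, 0 to 1 at 12 h and 4 to 7 at 24 h against 0 h, 0 to 1 at 12 h against 6 h, 0 to 6 at 24 h against 12 h, 2 to 7 at 24 h against 6 h, and 2 to 8 over the 4 times; the cause was not tested.

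Over all probe sets, leaving out 1 array gave 2598 to 5201 calls at 24 h against 0 h (4472 with all arrays), 835 to 2998 at 6 h (2441), 1518 to 4147 at 12 h (3257), 323 to 1547 at 12 h against 6 h (1130), 83 to 1650 at 24 h against 12 h (934), 1737 to 3829 at 24 h against 6 h (3377) and 3301 to 6604 over the 4 times (5447). For 12 h against 6 h it was 236 with only the arrays compared, 644 without a filter and 606 without a variance trend, and for 24 h against 12 h 529 without a filter and 369 without a trend. With each array centred on its median, 37.5% of calls at 24 h against 0 h were higher, against 52.0% as deposited; the shares were 40.4% and 50.5% at 12 h, 42.2% and 54.8% at 24 h against 12 h, and 40.5% and 54.7% at 24 h against 6 h. Without a variance trend the share at 24 h against 12 h was 68.0%.

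Times share replicate numbers, but deviations of same-numbered samples correlated only at 0.0122 to 0.0733, so the numbers were not taken as pairs. With a replicate block the members' probe sets called were 0, 1 and 6 at 6, 12 and 24 h against 0 h. They were 1 at 12 h against 6 h, 4 at 24 h against 12 h, 5 at 24 h against 6 h and 6 over the 4 times. Over all probe sets, every comparison had more calls with the block than without it. There were 4832 against 4472 at 24 h against 0 h, and 5982 against 5447 over the 4 times.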
